A study of Mus musculus with 2 samples.

Results

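MAP kinase phosphatases are enzymes that remove phosphate from the threonine and the tyrosine in the activation loop of MAP kinases and so switch these kinases off. The set described here held 9 genes of this family (Dusp1, Dusp2, Dusp4, Dusp5, Dusp6, Dusp7, Dusp8, Dusp10 and Dusp16), taken by symbol from the 23444 gene symbols of the deposited tables, and all 9 were found. Macrophages of the mouse strain FVB, grown in culture from bone marrow, gave 2 RNA-seq libraries, 1 with the label WT (RON proficient) and 1 with the label RON TK-/- (RON deficient, after the tyrosine kinase of the receptor RON). Per the labels, cells of both groups were cultured for 72 hours with recombinant interleukin-4, a cytokine that drives alternative (M2) activation, at 10 ng/mL. Values are FPKM (sequenced fragments normalised to transcript length and to depth), added up over all rows of a symbol, and the deposited coverage implied a depth of 59770193 and 67146863 reads. The labels name no separate animals or cultures and there is 1 library per group, so no test was possible, no spread between replicates is known, and every difference below is between these 2 libraries.

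Several MAP kinase phosphatases are made as early genes once MAP kinases are active, which makes them a negative feedback on the pathway. The family falls into nuclear inducible enzymes (Dusp1, Dusp2, Dusp4, Dusp5), cytoplasmic enzymes that prefer ERK (Dusp6, Dusp7), and enzymes that prefer the stress-activated kinases JNK and p38 (Dusp8, Dusp10, Dusp16). In macrophages Dusp1 is best known as a brake on p38 and on the inflammatory cytokine mRNAs that p38 keeps stable.

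Before the phosphatases, 3 facts of the libraries bear on how their labels are read. Mst1r, which encodes RON, was listed at 0 in both libraries (3 reads would have given 0.0107 FPKM under the label WT and 0.00949 under the other, counting error only), so it checked neither label. The interleukin-4 markers Arg1, Chil3, Retnla and Mrc1 summed to 72.2 FPKM under the label WT and to 14326 under the label RON TK-/-, and the inflammatory genes Nos2, Il1b, Tnf and Cxcl10 summed to 7896 and 4.58 FPKM, so the library labelled WT goes against its stated interleukin-4 treatment, and both libraries are named below by their labels alone. Whether the labels were exchanged was not tested, and an exchange would reverse every direction given below. The part of this activation difference in the results below could not be tested. With 1 library per label, genotype, activation and library cannot be told apart. All 9 macrophage markers found were detected, with sums of 5537 and 6312 FPKM of which Lyz2 gave 3317 and 4651. They were not equal in the libraries, with 1 at least 2-fold higher under the label RON TK-/- and 3 lower (1 and 4 relative to the median), among the latter Cd14 (1010 and 33.7 FPKM), Fcgr1 (26.6 and 3.58) and Mertk (32.5 and 9.68). Of all detected genes 25.6% were at least 2-fold higher there and 8.71% lower (8.38% and 14.4% relative to the median). Cd3e, Mpo and S100a9 were at 0 in both libraries. The lists for dendritic, T, B, mast and erythroid cells had 0 detected markers each, and that for neutrophils had 1 of 7 (S100a8, at 1.44 and 1.75 FPKM). Of 6 fibroblast markers 5 were detected (sums of 669 and 892 FPKM, with Col1a1 and Col1a2 the most abundant), and 2 of these were at least 2-fold higher under the label RON TK-/-, Col3a1 (48.5 and 171 FPKM) and Pdgfra (8.93 and 24.3). Relative to the median 1 was higher, because Pdgfra then had a log2 ratio of 0.78, within 2-fold. The part of these marker differences in the results could not be tested either. The log2 ratio of (FPKM + 1), RON TK-/- over WT, had a median of 0.57 over the 11288 detected genes (at least 1 FPKM in either library), so ratios below are also given relative to that median.

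The regulatory sequence before the start of 4 members is shown because the largest differences in either direction came from Dusp2, Dusp4, Dusp5, Dusp6 and Dusp16 while Dusp1 is the textbook cyclic AMP response gene of the family. RefSeq promoter windows of the GRCm38.p6 build matched 8 of 9 members, all but Dusp4. Only bases before the start that no annotated exon of the same gene covers are printed, 5′ to 3′ on the gene's strand, and capitals mark motif matches on either strand. Dusp2 lies on the plus strand with the window chr2:127335909-127336158, Dusp5 on the plus strand with chr19:53528895-53529108, Dusp1 on the minus strand with chr17:26508520-26508722 and Dusp6 on the plus strand with chr10:99262981-99263230.
Dusp2: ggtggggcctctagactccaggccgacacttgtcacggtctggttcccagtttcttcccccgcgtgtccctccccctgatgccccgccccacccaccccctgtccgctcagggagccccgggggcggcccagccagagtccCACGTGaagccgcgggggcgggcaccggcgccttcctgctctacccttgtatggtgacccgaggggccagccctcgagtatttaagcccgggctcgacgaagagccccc
Dusp5: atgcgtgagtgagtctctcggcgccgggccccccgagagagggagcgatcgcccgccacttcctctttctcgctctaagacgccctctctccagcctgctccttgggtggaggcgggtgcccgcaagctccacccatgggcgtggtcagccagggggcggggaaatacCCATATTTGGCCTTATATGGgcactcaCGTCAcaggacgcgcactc
Dusp1: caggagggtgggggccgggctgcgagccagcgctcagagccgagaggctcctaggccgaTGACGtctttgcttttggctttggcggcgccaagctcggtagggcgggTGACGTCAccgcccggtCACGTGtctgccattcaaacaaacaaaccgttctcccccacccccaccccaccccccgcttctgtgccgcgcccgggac
Dusp6: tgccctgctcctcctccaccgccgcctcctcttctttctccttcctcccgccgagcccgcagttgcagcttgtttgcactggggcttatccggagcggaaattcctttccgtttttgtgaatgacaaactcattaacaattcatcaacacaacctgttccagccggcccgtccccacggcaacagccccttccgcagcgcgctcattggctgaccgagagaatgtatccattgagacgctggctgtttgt

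The motifs searched in the 250 bases before the start were the cyclic AMP response element (CRE, TGACGTCA), its half-site (TGACG, which overlaps the full element), the AP-1 site (TGANTCA), the E-box (CACGTG), the STAT6 site (TTCNNNNGAA), the CArG box bound by serum response factor, and the kappaB site. Distances are counted from the RefSeq start of the promoter window, which for Dusp5 is not the start given for the gene below. Dusp5 held 2 CArG boxes side by side, from 82 to 73 and from 72 to 63 bases before that start, a motif found in 1.47% of 32851 promoter windows. Dusp1 held 1 full CRE 143 to 136 bases before the start, and Dusp8 held 2, against 1.55% of all windows. The 8 member windows had 56.4% (Dusp6) to 77.2% (Dusp7) G and C, against a median of 52.4% over all windows, and the shares were not matched for this. The half-site occurred in Dusp1, Dusp5, Dusp8 and Dusp16 (17.8% of all windows) and the E-box in Dusp1 and Dusp2 (6.02%). No match was found in any of the 8 windows for the AP-1 site (6.75% of all windows), the STAT6 site (5.85%) or the kappaB site (7.25%), which says only that these letters are not in these windows. Dusp5, with the CArG boxes, and Dusp2, without one, were both far lower under the label RON TK-/-. Of the genes with a full CRE, Dusp8 was lower there (log2 ratio of -0.43). Dusp1 was higher as deposited (0.71) but lay only 0.14 above the median of all genes. Whether any of these motifs bears on the levels was not tested.

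The make-up of the 9 genes differed between the libraries. Their summed level as deposited was 114 FPKM under the label WT and 108 under the label RON TK-/-. With the latter library rescaled to a median log2 ratio of 0 its sum was 68.2 FPKM, and the sum under the label WT was then 1.67 times higher, so sums given here and below rest on the scaling. Dusp2, Dusp5 and Dusp16 made up 61.9% of that sum under the label WT and 4.24% under the other. Dusp4 and Dusp6 made up 21.2% and 70.4%. From the highest level to the lowest the order was Dusp2, Dusp5, Dusp16, Dusp6, Dusp4, Dusp1, Dusp7, Dusp10 and Dusp8 under the label WT. It was Dusp4, Dusp6, Dusp1, Dusp7, Dusp10, Dusp16, Dusp5, Dusp8 and Dusp2 under the label RON TK-/-, and with no replicates the spread that would separate neighbours in either order is not known. The shares are taken within a library, so a common scaling of a library does not move them. In libraries made from bulk cultures, fewer cells that make a transcript and less of it per cell cannot be told apart.

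**Figure D1:**
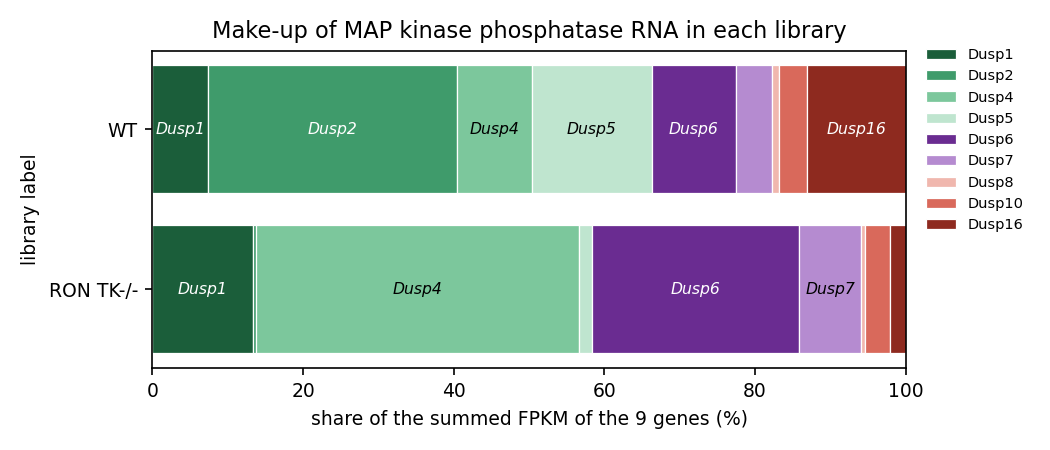
Share of each of the 9 phosphatase genes (percent of their summed FPKM, horizontal axis) by library label, WT above and RON TK-/- below (1 library per bar, no error known). Dusp2 takes 33.0% of the upper bar and 0.374% of the lower, and Dusp4 10.0% and 42.9%.

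On the scale of log2 (FPKM + 1), 2 members (Dusp4 and Dusp6) were at least 2-fold higher under the label RON TK-/-, where 25.6% of all detected genes were, so this count is near the background. By the same measure 3 members (Dusp2, Dusp5 and Dusp16) were at least 2-fold lower, where 8.71% of detected genes were. Measured from the median of detected genes, 1 member (Dusp4) was at least 2-fold higher (8.38% of detected genes) and the same 3 members were at least 2-fold lower (14.4%). The median log2 ratio of the 9 members was -0.21, against 0.57 for all detected genes. All 9 passed the minimum of 1 FPKM in a library, and Dusp2 and Dusp8 passed it through the WT-labelled library alone.

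**Figure D2:**
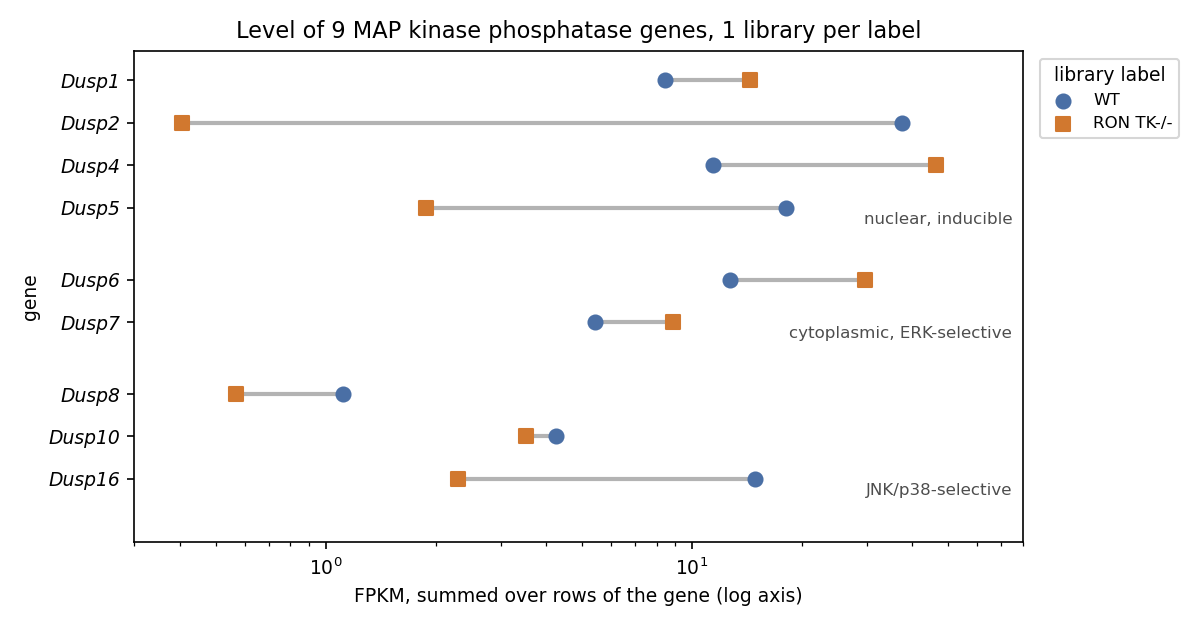
FPKM (log axis) of each phosphatase gene by library label, WT as circles and RON TK-/- as squares, 1 value each, grouped by the class of the enzyme. Dusp2, Dusp5 and Dusp16 have the WT value far to the right, Dusp4 and Dusp6 the RON TK-/- value, and Dusp10 lies close together at 4.25 and 3.53.

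Of the nuclear phosphatases, Dusp2 and Dusp5 were far lower under the label RON TK-/-, Dusp4 was higher and Dusp1 lay near the median of all genes. Dusp2, an inducible phosphatase of blood cells, lies on chromosome 2 from 127336159 to 127338377 of mm10. Its level was 37.5 FPKM under the label WT, the highest of the 9 genes, and 0.403 under the label RON TK-/-, the lowest. The level was 93.0 times higher under the label WT, and the log2 ratio was -4.78 (-5.34 relative to the median), lower than all but 0.753% of detected genes. These values rest on about 3611 and 48 estimated reads (coverage times length over read length), whose ratio scaled to depth was 84.5 with a 95% exact binomial interval of 63.6 to 115, and here as below such intervals cover counting error only. The other members rested on 146 (Dusp5) to 7602 (Dusp4) estimated reads in a library.

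Dusp5, a nuclear phosphatase specific for ERK, lies on chromosome 19 from 53529318 to 53541322. It had 18.1 FPKM under the label WT and 1.88 under the label RON TK-/-, a 9.62 times higher level under the first and a log2 ratio of -2.73 (-3.29 relative to the median). It moved from the second rank among the members to the seventh. Its estimated reads gave a 9.80 times higher level under the label WT, with an interval of 8.25 to 11.7. The row of Dusp5 is 1155 bases long, while the exons of its GENCODE transcript sum to 2473 bases. Of those 1155 bases, 338 overlap exons of the antisense gene AC137853.2, and with the strand setting not given in the sources used here, reads of the 2 genes cannot be told apart there.

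Dusp4, which acts on ERK, JNK and p38, lies on chromosome 8 from 34807610 to 34819894 and went the other way. Its level was 11.4 FPKM under the label WT and 46.3 under the label RON TK-/-, the highest of the 9 genes there. That was 4.05 times higher, with a log2 ratio of 1.93 (1.36 relative to the median) that exceeded those of 95.9% of detected genes. The estimated reads, 1656 and 7602, gave a ratio of 4.09 (3.87 to 4.31). Under the label WT Dusp2 was 3.29 times as abundant as Dusp4, and under the label RON TK-/- Dusp4 was 115 times as abundant as Dusp2.

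Dusp1, on chromosome 17 from 26505591 to 26508472, had 8.43 FPKM under the label WT and 14.4 under the label RON TK-/-. Its log2 ratio was 0.71, only 0.14 above the median of all genes, so it sat in the middle of the distribution. By estimated reads it was 1.71 times higher under the label RON TK-/- (1.58 to 1.85). Tnf, whose mRNA p38 stabilises, had 1262 FPKM under the label WT and 0.525 under the other, a far wider gap than that of Dusp1, and a link between the 2 genes was not tested. As a share of the 9 genes Dusp1 was 7.41% and 13.3%. The antisense neighbour Ergic1 overlaps no exon base of the Dusp1 row.

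The class as a whole therefore had no common direction. Ratios of the 4 nuclear genes spanned 6.71 log2 units around a median of -1.01, with 1 past 2-fold on the higher side and 2 on the lower. Their summed level was 75.4 FPKM under the label WT and 63.0 under the label RON TK-/-. Dusp2 and Dusp5 together had 55.6 and 2.28 FPKM, and Dusp1 and Dusp4 together 19.8 and 60.7.

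Both cytoplasmic ERK-selective genes were higher under the label RON TK-/- as deposited. Dusp6, the classic feedback phosphatase of ERK, lies on chromosome 10 from 99263231 to 99267489 and had 12.7 FPKM under the label WT and 29.7 under the label RON TK-/-. This was a 2.34 times higher level and a log2 ratio of 1.16. Relative to the median the ratio was 0.60, which is within 2-fold, so the call for Dusp6 rests on the scaling of the libraries. Dusp7, on chromosome 9 from 106368632 to 106375723, had 5.44 and 8.87 FPKM and a log2 ratio of 0.62, or 0.05 relative to the median. The estimated reads gave intervals of 2.20 to 2.44 times for Dusp6 and 1.51 to 1.76 times for Dusp7. Dusp6 was 2.34 times as abundant as Dusp7 under the label WT and 3.35 times under the label RON TK-/-. The class made up 15.9% of the members' summed FPKM under the label WT and 35.7% under the other.

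The JNK/p38-selective genes were lower under the label RON TK-/-, by very different amounts. Dusp16, a JNK-selective phosphatase, lies on chromosome 6 from 134715468 to 134792628 and had 14.9 FPKM under the label WT and 2.29 under the label RON TK-/-. The level was 6.49 times higher under the label WT, with a log2 ratio of -2.27 (-2.84 relative to the median) and an interval of 5.88 to 6.86 times by estimated reads. Dusp10, which acts on p38 and JNK, lies on chromosome 1 from 184034461 to 184075636 and had 4.25 and 3.53 FPKM. The log2 ratio of Dusp10 was -0.21 (-0.78 relative to the median), and its estimated reads, 683 and 638, gave a 1.20 times higher level under the label WT with an interval of 1.08 to 1.34. Dusp8, on chromosome 7 from 142079487 to 142095284, was the scarcest of the class in both libraries with 1.11 and 0.569 FPKM. Without a pseudocount the level of Dusp8 was 1.96 times higher under the label WT, and its log2 (FPKM + 1) ratio of -0.43 understates this. Relative to the median that ratio was -0.997, only just within 2-fold. Its estimated reads, 307 and 183, gave an interval of 1.56 to 2.28 times.

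The class total of the JNK/p38-selective genes was 20.3 FPKM under the label WT and 6.39 under the label RON TK-/-, 17.8% and 5.92% of the members' sum, and Dusp16 accounts for most of the gap. Dusp16 was 3.50 times as abundant as Dusp10 under the label WT, while Dusp10 was 1.54 times as abundant as Dusp16 under the other. The order of these genes therefore turned between the libraries, whatever the scaling.

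Dusp16 was the only member listed with more than 1 transcript, and its 2 rows differed in the libraries. The row NM_130447 (5112 bases) had 12.5 FPKM under the label WT and 2.29 under the label RON TK-/-. The row NM_001048054 (4146 bases) had 2.42 FPKM under the label WT, 16.3% of the gene, and 0.000316 under the other, where it was given less than 1 estimated read. In GENCODE the matching transcripts each have 7 exons and differ at the last one, which runs on chromosome 6 from 134715473 to 134719051 in the long form and from 134715468 to 134718085 in the short form. The long form thus keeps 966 more bases at the 5′ end of that exon. The forms share their other exons apart from the outer ends, so the division of reads between the rows is the program's estimate.

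**Figure D3:**
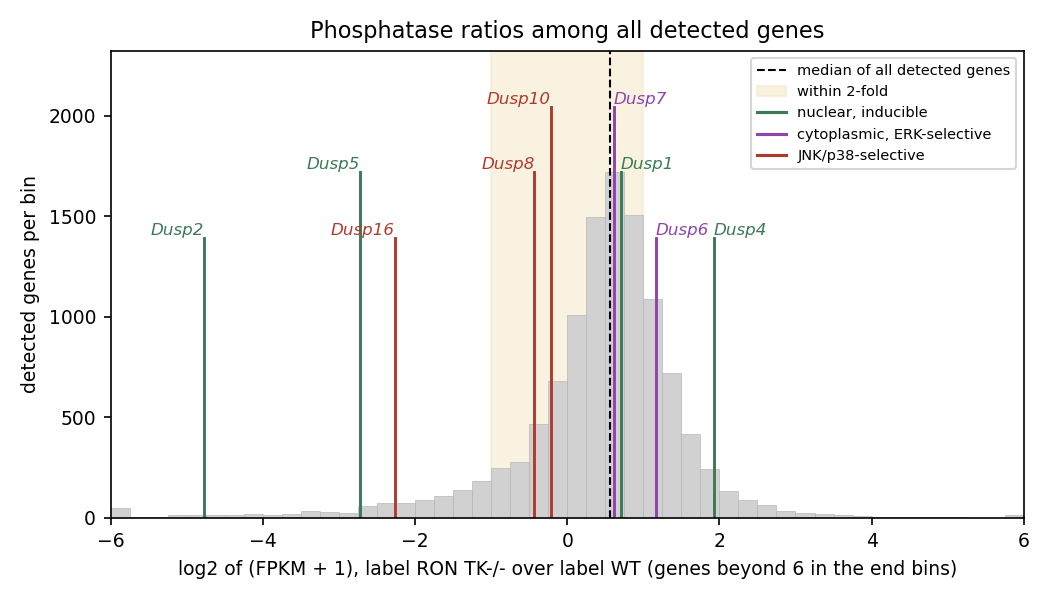
Number of detected genes (vertical axis) by log2 ratio of (FPKM + 1), library labelled RON TK-/- over WT-labelled library, with the 9 phosphatases as coloured lines whose heights carry no value, the band within 2-fold and the median of 0.57 (dashed). Dusp1 and Dusp7 stand close to the median, and Dusp2, Dusp5 and Dusp16 in the lower tail.

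Most kinases on which these phosphatases act were within 2-fold, but so was most of the transcriptome (25.6% higher and 8.71% lower). Relative to the median those shares were 8.38% and 14.4%. The kinases are too few to be set apart from either pair of shares. Of 9 detected MAP kinases 2 were at least 2-fold higher under the label RON TK-/- (Mapk14 and Nlk) and 1 lower (Mapk6), with the same counts relative to the median. Mapk14, the main p38 of macrophages, had 7.97 FPKM under the label WT and 43.6 under the label RON TK-/-. The ERK gene Mapk3 (75.9 and 86.3 FPKM) and the JNK genes Mapk8 (2.58 and 3.42) and Mapk9 (8.55 and 12.0) were within 2-fold, and the JNK genes were named as substrates after their values were seen. Dusp16 and the JNK genes thus had unlike ratios, with Dusp16 at -2.27 and Mapk8 and Mapk9 at 0.31 and 0.44.

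Upstream kinases were mostly within 2-fold, as were most of all detected genes. Among all detected genes 25.6% were at least 2-fold higher under the label RON TK-/- and 8.71% lower (8.38% and 14.4% relative to the median). Each list of this paragraph is too small to be set apart from those shares. Of 7 MAP kinase kinases 1 was at least 2-fold higher, Map2k6 (0.816 FPKM under the label WT and 3.51 under the other), and 1 lower, Map2k3 (56.9 and 27.6), and both activate p38. Relative to the median these counts were 0 and 1. Of 19 detected MAP3 kinases 4 were higher and 1 lower (1 and 2 relative to the median). The lower gene was Map3k8, which links Toll-like receptors to ERK (17.1 and 6.90), and the highest ratio was that of Map3k4 (0.368 and 3.85). Of 10 kinases activated by MAP kinases 3 were higher and 2 lower (1 and 3 relative to the median), with the p38 effector Mapkapk2 at 283 and 53.6 FPKM and Mknk2 at 5.14 and 33.8.

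Other feedback inhibitors of ERK were mostly within 2-fold, as were most of all detected genes (25.6% higher and 8.71% lower). Their list is too small to be set apart from those shares. Of 10 detected, 0 were at least 2-fold higher and 2 lower, namely Spred1 (59.4 FPKM under the label WT and 21.4 under the label RON TK-/-) and Spry1 (2.55 and 0.730), and relative to the median 3 were lower. The early genes and other transcription factors that respond to ERK had no common direction, with 5 of 22 higher and 5 lower. Etv5 (2.02 and 20.5) and Etv1 (1.67 and 16.9), of the ETS family, had the highest ratios of this list. Phlda1 (40.6 and 3.59) and Maff (37.5 and 4.78) had the lowest. Relative to the median the split of this list was 3 higher and 8 lower, where 8.38% and 14.4% of all detected genes were.

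The cytokine mRNAs regulated by p38 and its effector had the median farthest from that of all genes among the pathway lists. The list was chosen with earlier results of these data known. It shares Tnf and Il1b with the inflammatory genes named above, so it is no separate support for that activation difference. Of 13 members, including the mRNA-binding regulators, 9 were at least 2-fold lower under the label RON TK-/- and 1 higher, with a median log2 ratio of -6.49. Among all detected genes 8.71% were lower and 25.6% higher by the same measure. Relative to the median of all genes 10 were lower and 1 higher, where 14.4% and 8.38% of all detected genes were. Il1b had 823 FPKM under the label WT and 0.199 under the other. The higher gene was the mRNA-destabilising Zfp36l1 (8.18 and 33.2). Of the phosphatases, Dusp2 at -4.78 came nearest to the median of this list, and Dusp1 was at 0.71 (0.14 relative to the median of all genes). A link of either phosphatase to these mRNAs was not tested.

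**Figure D4:**
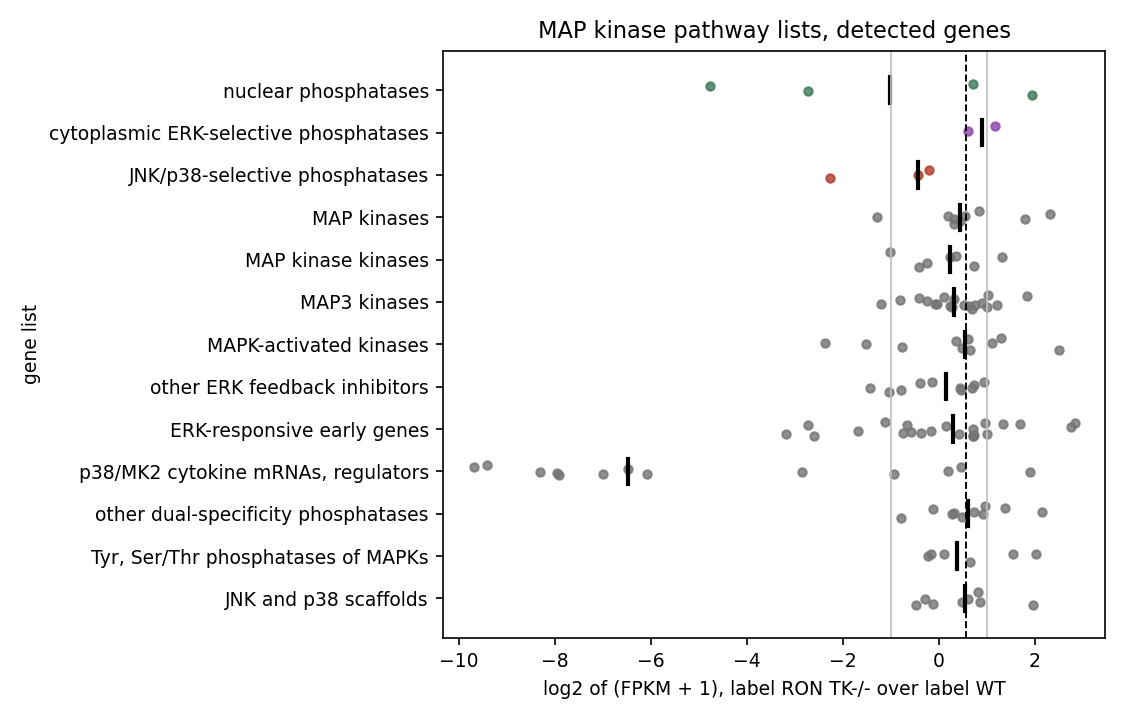
Log2 ratio of (FPKM + 1), library labelled RON TK-/- over WT-labelled library, for each detected gene of the 3 phosphatase classes (coloured) and of 10 pathway lists (grey), with the list median as a short bar, the median of all detected genes dashed and 2-fold as grey lines. The nuclear phosphatases spread from -4.78 to 1.93, and the p38-regulated cytokine list has its median at -6.49.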

How the data were processed

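Total RNA of 2 macrophage libraries was sequenced as single reads of 50 bases, in the same run and lane per the labels. For each library the authors deposited FPKM, transcript length and coverage (a signal, mean read depth per base) by RefSeq transcript, and per the file headers the column names are Cufflinks'. mm10 and DESeq appear in the submitters' processing notes with no role. For aligner, annotation release and strand setting, the sources used here give nothing. Starts in the files count from 0, those printed from 1.

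FPKM of all rows sharing a symbol were added. Ratios were log2 of (FPKM + 1), RON TK-/- over WT, which understates differences of low genes, and a gene counted as detected from 1 FPKM in either library. Estimated reads were coverage times length over read length. They are not counts, so no count model was run. Intervals are exact binomial ones on estimated reads scaled to implied depth. The calculation was tested on simulated data. The named genes were all 9 phosphatases and, per pathway list, the 2 highest and 2 lowest detected ratios, not all of which are printed. Members, lists and alternatives were chosen with earlier results of these data known. Alternatives were the pseudocount, the minimum, the scaling, the row used and the threshold. Promoters came from RefSeq (GRCm38.p6) and exons from GENCODE M21, both of the mm10 assembly. Python 3.11.15, pandas 2.3.3 and scipy 1.17.1 were used.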

Additional observations from a re-analysis of the deposited data

How the results depend on the processing

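Both pseudocounts and the 3 scalings (median, TPM, estimated reads) changed each member's ratio, the row used changed that of Dusp16 alone, and the minimum on FPKM changes no ratio. Among the alternatives that changed its ratio, Dusp2 and Dusp5 were at least 2-fold lower under 5 of 5, Dusp16 under 6 of 6, and Dusp4 was at least 2-fold higher under 5 of 5. Dusp6 was at least 2-fold higher under 3 of 5. A pseudocount cannot turn a sign, and under the 3 scalings none of the 9 turned, though median rescaling brought Dusp7 to 0.04 and Dusp1 to 0.10. The count of lower members was 3 under every alternative, also at the thresholds of 1.5-fold and 4-fold. The count at least 2-fold higher, 2 as reported, was 1 with a pseudocount of 5 FPKM or with the library labelled RON TK-/- rescaled to a median ratio of 0, 4 at a threshold of 1.5-fold and 0 at 4-fold. The median of the JNK/p38-selective class, -0.43 as reported, was -0.86 and -0.13 with pseudocounts of 0.1 and 5, -0.67 as TPM, -0.70 after median rescaling, and -2.27 with a minimum of 5 FPKM, which leaves Dusp16 alone in it. The ERK-selective median of 0.89 was 0.69 with a pseudocount of 5 and 0.28 after median rescaling. The nuclear median of -1.01 was -1.22 and -0.61 with pseudocounts of 0.1 and 5 and -1.51 after median rescaling. Rescaling changed the early gene list from 5 higher and 5 lower to 3 and 9. Among all detected genes the shares at least 2-fold higher and lower were 25.6% and 8.71% as deposited and 8.42% and 13.9% after median rescaling. No paired analysis was possible because each group has 1 library. Leaving out a replicate was not possible for the same reason.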

Other observations

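Other dual-specificity phosphatases, and the tyrosine and serine/threonine phosphatases of MAP kinases, were mostly within 2-fold. Of all detected genes 25.6% were at least 2-fold higher under the label RON TK-/- and 8.71% lower. The counts of each list in this section are too small to be set apart from those shares. Of 10 detected dual-specificity phosphatases outside the 9, 2 were at least 2-fold higher and 0 lower. Dusp3, a small phosphatase without the kinase-docking domain of the 9, had 20.7 FPKM under the label WT and 55.0 under the label RON TK-/-, and Dusp18 had 0.495 and 5.58. Measured from the median of detected genes 1 was higher and 1, Dusp14 (2.78 and 1.17 FPKM), was lower. Dusp3 under the label RON TK-/- was above each of the 9 phosphatases, of which Dusp4 was the highest at 46.3 FPKM.

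Of 6 detected tyrosine and serine/threonine phosphatases of MAP kinases, 2 were at least 2-fold higher and 0 lower (1 and 0 relative to the median). Ptpn7, a tyrosine phosphatase of blood cells that acts on ERK and p38, had 4.74 FPKM under the label WT and 22.2 under the other. Ppm1d, a p53 target that acts on p38, had 0.557 and 3.52. Of 8 detected scaffold genes 1 was higher, the arrestin gene Arrb1 (7.51 and 32.2), and 0 were lower, against 1 and 1 relative to the median. None of these values has a replicate check.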
